A study of Mus musculus with 20 samples.

Results

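Potassium channel genes were taken as every measured gene whose symbol begins with Kcn, then letters and a number, which gave 91 of the 19938 genes tested. The gastrocnemius, a calf muscle of mostly fast fibres, had been profiled on 20 Affymetrix mouse gene arrays from adult male C57BL/6 mice. PGC-1alpha-mTg mice carry a muscle-specific transgene for the transcriptional coactivator PGC-1alpha (5 arrays), and were set against WT mice (5 arrays). NCoR1-MKO mice lack the nuclear receptor corepressor NCoR1 in muscle (5 arrays), and were set against CON mice (5 arrays). The promoters that drive the transgene and the deletion, the genotype of CON, the ages in weeks and whether each array is a mouse of its own are not given in the sources used here, so p-values measure the spread between arrays, which may in part be technical. Of the 91 genes, 3 are noncoding transcripts named after a channel gene (Kcnd3os, Kcnmb4os1 and Kcnmb4os2), and the others encode channel subunits or proteins that bind them.

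Potassium channels let potassium leave or enter a cell along its gradient and so set the resting potential of the muscle membrane and end each action potential. Voltage-gated (Kv) channels are tetramers of alpha subunits, some of which are silent alone and act only inside a mixed tetramer, with auxiliary subunits that tune gating. Calcium-activated channels couple potassium flow to internal calcium, inward rectifiers hold the resting potential, ATP-sensitive ones among them close when ATP is plentiful, and tandem-pore-domain channels carry background leak. Skeletal muscle must also clear the potassium that leaks out during contraction, which the sodium-potassium pump does.

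All values are RMA expression values on the log2 scale, and every change is a log2 fold change ± SE, PGC-1alpha-mTg over WT or NCoR1-MKO over CON, from 5 arrays a group. A gene was called, and is said to have risen or fallen, at a limma adjusted p under 0.05 over all 19938 genes. A probe set's level depends on its probes, so levels are compared between arrays and never between genes. The muscle markers (Acta1, Ckm, Myh4, Mylpf, Tnnt3, Tnni2, Myl1 and Pvalb) averaged 12.87 to 12.90 per PGC-1alpha-mTg array, 12.95 to 12.99 per WT array, 13.46 to 13.48 per NCoR1-MKO array and 13.43 to 13.45 per CON array. Quantiles differed between the cohorts, so WT and CON were not compared. In PGC-1alpha-mTg, Ppargc1a, the transgene's own gene, rose by 1.83 ± 0.07 (adjusted p = 9.88e-15), and Ncor1 was not analysed here. Among PGC-1alpha-mTg arrays, array 5 correlated least with its group (median r 0.9901, beside 0.9928 to 0.9945 for the other transgenic arrays) and arrays 2 and 3 had the lowest upper quartiles (7.57 in each).

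Muscle with extra PGC-1alpha changed a minority of its potassium channel genes, a few of them by a large amount. In PGC-1alpha-mTg against WT, 11 of the 91 genes rose and 6 fell, which is 12.1 percent and 6.59 percent, beside 11.9 percent and 16.1 percent of all genes tested (28.0 percent in both directions together). The share that rose was thus near the background of this comparison. Kcng4, a silent Kv subunit, rose 3.90-fold, and Kcnab1, an auxiliary subunit of Kv channels, fell 2.79-fold. The other called genes changed between 1.12-fold and 1.68-fold. The median change of the 91 genes was 0.07, and that of all genes was 0.02. The number called higher was 7 without WT array 5 and 18 without PGC-1alpha-mTg array 5. The number called lower was 3 without PGC-1alpha-mTg arrays 2 and 3, a setting chosen after the data were seen. Of the 6 genes that fell, only Kcnab1 and Kcnma1 kept the call in that setting.

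Muscle without NCoR1 changed fewer. In NCoR1-MKO against CON, 3 of the 91 genes rose (Kcng4, Kcnn2 and Kcnc1) and 2 fell (Kcnab1 and Kcnq5), which is 3.30 percent and 2.20 percent beside 1.31 percent and 1.32 percent of all genes (2.63 percent together). At an unadjusted p under 0.05 the number was 12, or 13.2 percent, near the 11.8 percent of all genes. The largest of these changes was that of Kcnab1, 1.52-fold. The median change of the 91 genes was -0.01, and that of all genes was 0.00. Without CON array 4, CON array 5 or NCoR1-MKO array 1 the number called higher was 1.

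**Figure D1:**
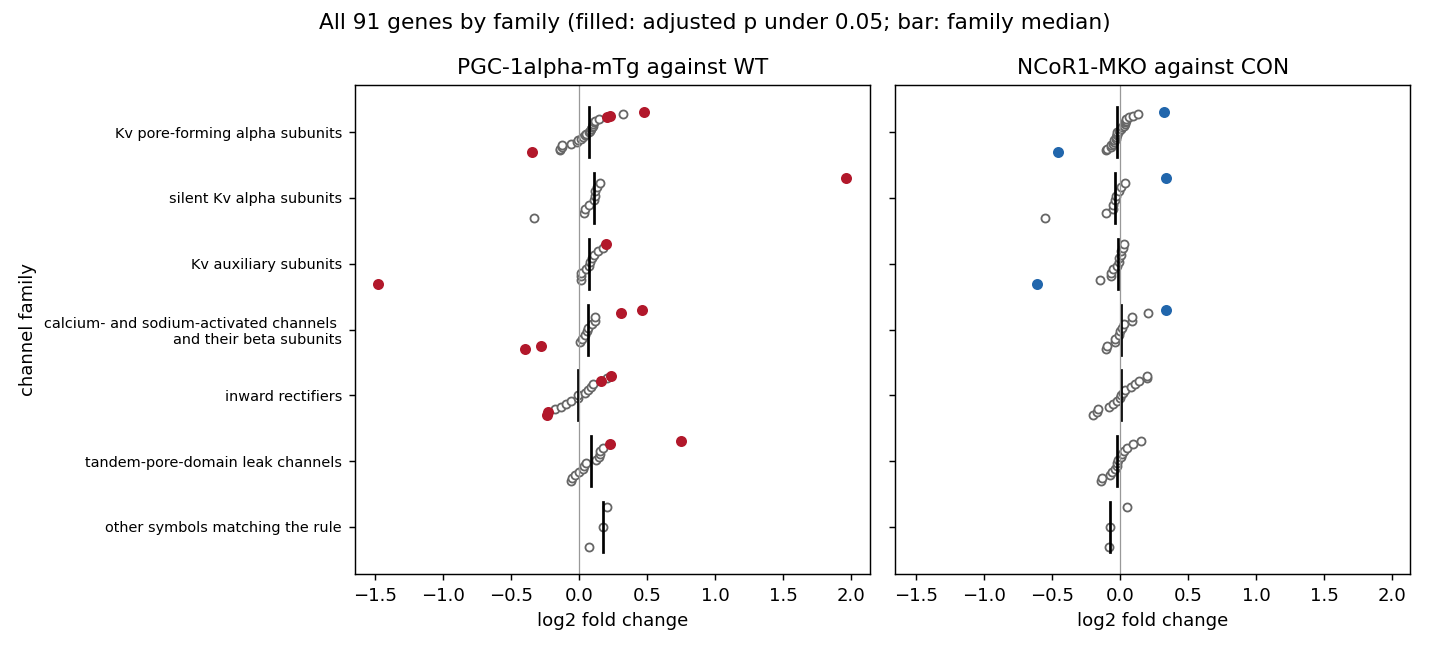
Log2 fold changes of all 91 genes by channel family (1 point per gene, filled where the limma adjusted p is under 0.05; bars mark family medians) in PGC-1alpha-mTg against WT on the left and NCoR1-MKO against CON on the right. Kcng4 at 1.96 and Kcnab1 at -1.48 in PGC-1alpha-mTg lie far from the other members of their families.

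Among the silent Kv subunits, 1 of 10 genes rose in each model and none fell. It was Kcng4 (probe set 10582146), whose product forms no channel alone but joins Kcnb subunits and shifts their voltage dependence. It read 9.77, 9.93, 9.79, 9.87 and 9.91 on the PGC-1alpha-mTg arrays, against 8.16, 7.89, 7.93, 7.78 and 7.69 on the WT arrays. It read 8.60, 8.47, 8.45, 8.63 and 8.77 on the NCoR1-MKO arrays, against 8.32, 8.33, 8.44, 8.06 and 8.09 on the CON arrays. In both cohorts every mutant array lay above every control array, with a wide gap in the transgenic mice and a narrow one in the knockout, where CON array 3 came close to the lowest knockout arrays. The change was 1.96 ± 0.08 in PGC-1alpha-mTg (adjusted p = 9.47e-14) and 0.34 ± 0.08 in NCoR1-MKO (adjusted p = 0.0256). The transgenic effect exceeded that of the knockout by 1.62 ± 0.12 (adjusted p = 2.92e-09). The knockout call was lost without CON array 4 or 5 or NCoR1-MKO array 1, 4 or 5 (adjusted p from 0.0573 to 0.0816) and with only the 10 arrays of that comparison (adjusted p = 0.0506), while the transgenic call held in each fit that left out 1 array.

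The other 9 silent subunits were not called in either model. Kcnf1, singled out after its values were seen, varied most among arrays, with an SE of 0.26 for its changes. It read 5.19, 5.42, 5.66, 5.56 and 6.11 in PGC-1alpha-mTg, against 5.48, 5.71, 5.79, 5.81 and 6.83 in WT. The NCoR1-MKO arrays read 6.31, 6.43, 5.99, 7.68 and 6.34, against 7.25, 7.08, 7.36, 6.61 and 7.20 in CON. The groups overlapped in both cohorts, in the knockout cohort only through NCoR1-MKO array 4. The changes of -0.33 ± 0.26 (adjusted p = 0.385) and -0.55 ± 0.26 (adjusted p = 0.404) did not pass.

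Upstream sequence from RefSeq (GRCm38.p6) is shown for Kcng4, Kcnk1, Kcnc4 and Kcnn1. These are the 4 genes that rose in PGC-1alpha-mTg and whose difference of effects was called higher there than in NCoR1-MKO. Each run holds the 250 bases before an annotated start, 5′ to 3′ on the gene's strand, and capitals mark CAGCTG, an E-box form bound by myogenic factors. The Kcng4 run is chr8:119635681-119635930 (minus strand), that of Kcnk1 is chr8:125994852-125995101 (plus strand), that of Kcnc4 is chr3:107458899-107459148 (minus strand) and that of Kcnn1, from 1 of its 2 annotated starts, is chr8:70863259-70863508 (minus strand).
Kcng4: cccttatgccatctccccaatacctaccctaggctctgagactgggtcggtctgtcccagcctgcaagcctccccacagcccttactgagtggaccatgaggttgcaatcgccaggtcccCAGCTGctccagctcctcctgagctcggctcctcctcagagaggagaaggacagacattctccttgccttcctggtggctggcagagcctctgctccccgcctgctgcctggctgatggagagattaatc
Kcnk1: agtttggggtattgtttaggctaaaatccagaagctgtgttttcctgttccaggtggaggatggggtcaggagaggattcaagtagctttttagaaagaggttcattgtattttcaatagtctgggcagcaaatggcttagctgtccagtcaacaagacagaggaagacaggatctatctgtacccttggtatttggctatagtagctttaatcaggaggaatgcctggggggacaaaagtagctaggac
Kcnc4: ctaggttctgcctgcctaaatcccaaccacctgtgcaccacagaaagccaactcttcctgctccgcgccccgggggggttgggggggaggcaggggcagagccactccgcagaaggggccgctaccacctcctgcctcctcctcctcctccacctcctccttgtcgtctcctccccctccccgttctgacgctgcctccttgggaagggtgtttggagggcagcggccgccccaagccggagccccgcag
Kcnn1: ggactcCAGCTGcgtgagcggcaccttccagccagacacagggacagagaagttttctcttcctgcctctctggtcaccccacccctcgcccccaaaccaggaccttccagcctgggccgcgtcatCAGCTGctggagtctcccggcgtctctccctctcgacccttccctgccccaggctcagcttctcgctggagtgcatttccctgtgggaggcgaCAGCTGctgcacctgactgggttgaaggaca
The nearest CAGCTG lay 130 to 125 bases before the Kcng4 start and 31 to 26 bases before the Kcnn1 start shown. No CAGCTG was found in the Kcnk1 and Kcnc4 windows. The Kcnn1 window shown held 3 CAGCTG, and that of its other start held 1, at 142 to 137 bases before that start. Windows of 300 bases, with 50 after the start, were held for 69 of the 91 genes, and CAGCTG, which reads the same on both strands, was found in 18 of these (26.1 percent) beside 18.3 percent of 27025 genes. The estrogen-related receptor element TCAAGGTCA was found on either strand in 0 of the 69 genes, beside 0.466 percent of all genes. Its core AAGGTCA, which the longer element contains, was found in 3 (4.35 percent, beside 5.38 percent), none of them among the 14 called genes with a window. The MEF2 consensus was found in 2 of the 69 (2.90 percent, beside 3.70 percent), also none of them called. The 4 searches were chosen after the data were seen, and CAGCTG was capitalised because it alone matched called genes (2 of the 14). That share is smaller than the share among the 69 genes and the share among all genes. These matches describe letters in short windows and say nothing of binding.

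**Figure D2:**
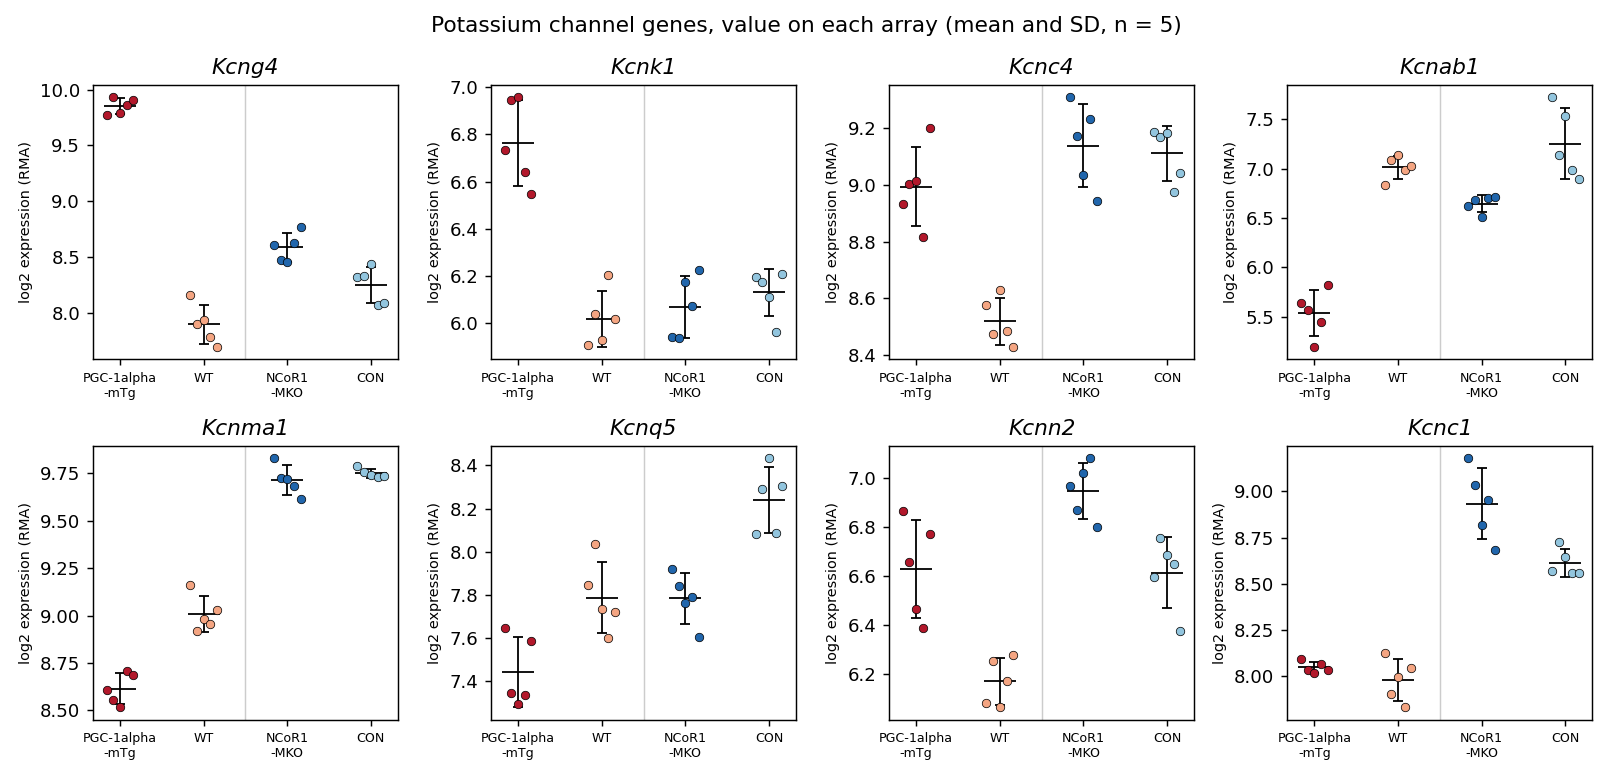
Log2 expression of 8 potassium channel genes on each of the 20 arrays, with the mean and SD of each group (n = 5); each panel has its own vertical axis, and the line divides the cohorts. Kcng4, Kcnk1, Kcnc4 and Kcnn2 lie higher and Kcnab1 and Kcnma1 lower on every PGC-1alpha-mTg array than on any WT array.

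The pore-forming Kv subunits had 3 of 25 genes higher and 1 lower in PGC-1alpha-mTg, and 1 higher and 1 lower in NCoR1-MKO. Kcnc4 (probe set 10501098) encodes a fast-inactivating Kv subunit of fast-spiking neurons that is also found in skeletal muscle. It read 8.93, 9.0, 9.01, 8.82 and 9.20 in PGC-1alpha-mTg, against 8.58, 8.47, 8.63, 8.48 and 8.43 in WT. The groups did not overlap, and Kcnc4 rose by 0.47 ± 0.07 (adjusted p = 1.81e-05). On the NCoR1-MKO arrays it read 9.31, 9.17, 9.04, 9.23 and 8.94, against 9.19, 9.17, 9.18, 8.98 and 9.04 in CON. These overlapped, with a change of 0.03 ± 0.07 and a 95% confidence interval from -0.12 to 0.18. The effects of the 2 models differed by 0.45 ± 0.10 (adjusted p = 0.00329).

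Kcnc1 (probe set 10553261), a relative of Kcnc4 that gives fast delayed-rectifier currents, was called in the knockout instead. It read 9.18, 9.04, 8.82, 8.95 and 8.68 in NCoR1-MKO, against 8.57, 8.73, 8.64, 8.56 and 8.56 in CON. The lowest knockout array lay under the highest CON array, and the other 4 lay above all CON arrays. Kcnc1 rose by 0.32 ± 0.07 (adjusted p = 0.0124), but missed the threshold with only the 10 arrays of that comparison (adjusted p = 0.0591). In PGC-1alpha-mTg it read 8.09, 8.03, 8.02, 8.06 and 8.03, against 8.12, 7.90, 7.99, 7.83 and 8.04 in WT. The transgenic values lay inside the WT range, with a change of 0.07 ± 0.07 (adjusted p = 0.530). The difference of the 2 effects, -0.25 ± 0.10, did not pass (adjusted p = 0.100), so the models are not shown to differ in Kcnc1.

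Kcnq5 (probe set 10353460), whose product gives slowly activating M-type current in neurons and is found in muscle, fell in both models. It read 7.64, 7.34, 7.29, 7.33 and 7.58 in PGC-1alpha-mTg, against 7.85, 8.03, 7.73, 7.60 and 7.72 in WT. Only PGC-1alpha-mTg array 1 reached the WT range, at its lower end. It read 7.92, 7.84, 7.76, 7.79 and 7.60 in NCoR1-MKO, against 8.08, 8.29, 8.43, 8.09 and 8.30 in CON, without overlap. The change was -0.35 ± 0.09 in PGC-1alpha-mTg (adjusted p = 0.00375) and -0.46 ± 0.09 in NCoR1-MKO (adjusted p = 0.00340). The effects differed by 0.11 ± 0.12 (95% confidence interval from -0.15 to 0.36, adjusted p = 0.635). The transgenic call was lost without PGC-1alpha-mTg arrays 2 and 3 (adjusted p = 0.0593).

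Kcna3 and Kcnq1 completed the Kv alpha subunits called in PGC-1alpha-mTg. Kcna3, a Kv subunit best known from T cells, read 6.57, 6.86, 6.85, 6.83 and 6.38 in PGC-1alpha-mTg, against 6.50, 6.46, 6.39, 6.64 and 6.37 in WT. It rose by 0.23 ± 0.07 (adjusted p = 0.0256), carried by arrays 2, 3 and 4. The call was lost without WT array 3 or 5 or PGC-1alpha-mTg array 2, 3 or 4 (adjusted p from 0.0668 to 0.0848), and with only the 10 arrays of the comparison (adjusted p = 0.0912). Without PGC-1alpha-mTg arrays 2 and 3 together the Kcna3 change was 0.12 (adjusted p = 0.318). Markers of macrophages and lymphocytes had 1 of 8 genes called higher and none lower in PGC-1alpha-mTg, with summed linear levels from 1351 to 1548 there and from 1075 to 1362 in WT, and their part in the Kcna3 result was not tested. Kcnq1, a slowly activating Kv subunit of heart and epithelia, read 6.26, 6.37, 6.45, 6.35 and 6.33 in PGC-1alpha-mTg, against 6.09, 6.32, 6.11, 6.20 and 6.03 in WT. It rose by 0.20 ± 0.06 (adjusted p = 0.00888), with WT array 2 inside the transgenic range. Without PGC-1alpha-mTg arrays 2 and 3 its adjusted p was 0.0841.

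Kcna7, a Kv subunit enriched in muscle, was not called in either model. It read 9.18, 8.85, 8.97, 8.89 and 9.09 in PGC-1alpha-mTg, against 8.92, 8.93, 8.82, 8.86 and 8.87 in WT. In NCoR1-MKO it read 9.15, 9.04, 9.08, 9.16 and 8.88, against 8.79, 8.91, 8.95, 9.02 and 9.01 in CON. The groups overlapped in both cohorts, and the changes were 0.12 ± 0.06 (adjusted p = 0.198) and 0.13 ± 0.06 (adjusted p = 0.450). The other 19 Kv alpha subunits were also not called in either model, with Kcna5 at 0.32 ± 0.13 in PGC-1alpha-mTg (adjusted p = 0.0796) the farthest from 0 among them.

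The auxiliary Kv subunits had 1 of 12 genes higher and 1 lower in PGC-1alpha-mTg, and 1 lower in NCoR1-MKO. Kcnab1 (probe set 10492402) encodes a beta subunit with an oxidoreductase fold that binds Kcna channels and speeds their inactivation. It read 5.64, 5.57, 5.20, 5.45 and 5.82 in PGC-1alpha-mTg, against 6.83, 7.09, 7.14, 6.98 and 7.03 in WT. The NCoR1-MKO arrays read 6.62, 6.68, 6.51, 6.70 and 6.71, against 7.72, 7.13, 7.53, 6.99 and 6.89 in CON. No mutant array reached a control array in either cohort, and the CON arrays were the most spread (SD 0.36). Kcnab1 fell by 1.48 ± 0.13 in PGC-1alpha-mTg (adjusted p = 4.16e-09) and by 0.61 ± 0.13 in NCoR1-MKO (adjusted p = 0.00725). Both calls held whichever array was left out. The fall was larger in the transgenic mice, by a difference of -0.87 ± 0.18 (adjusted p = 0.00128).

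The other beta subunits did not follow Kcnab1. Kcnab2 changed by 0.01 ± 0.06 in PGC-1alpha-mTg and by 0.00 ± 0.06 in NCoR1-MKO, and Kcnab3 by 0.02 ± 0.06 and 0.03 ± 0.06. Kcne3, a small single-span subunit reported to pair with Kcnc4 in muscle, read 4.51, 4.35, 4.76, 4.50 and 4.59 in PGC-1alpha-mTg, against 4.39, 4.27, 4.40, 4.29 and 4.36 in WT. It rose by 0.20 ± 0.07 (adjusted p = 0.0423), with overlap. The call was lost without WT array 1, 2, 4 or 5 or PGC-1alpha-mTg array 1, 3, 4 or 5 (adjusted p from 0.0510 to 0.150), and with each array centred on its median (adjusted p = 0.0711).

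The calcium- and sodium-activated channels and their beta subunits had 2 of 12 genes higher and 2 lower in PGC-1alpha-mTg, and 1 higher in NCoR1-MKO. Kcnma1 (probe set 10418053) encodes the large-conductance BK channel, opened by calcium and voltage together. It read 8.61, 8.56, 8.52, 8.71 and 8.68 in PGC-1alpha-mTg, against 9.16, 8.92, 8.98, 8.96 and 9.03 in WT, and the groups did not overlap. Kcnma1 fell by 0.40 ± 0.05 (adjusted p = 1.86e-06). On the NCoR1-MKO arrays it read 9.83, 9.72, 9.72, 9.68 and 9.61, against 9.79, 9.76, 9.74, 9.73 and 9.73 in CON. The knockout change was -0.04 ± 0.05 (95% confidence interval from -0.14 to 0.07), and the 2 models differed by -0.36 ± 0.07 (adjusted p = 0.000936). A dimmer probe set named Kcnma1, 10582545, read 4.09 ± 0.06 in PGC-1alpha-mTg and 3.97 ± 0.08 in WT (SD, n = 5) and changed by 0.12 ± 0.09. With the mean of both probe sets the Kcnma1 change was -0.14 and missed the threshold (adjusted p = 0.0511).

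BK beta subunits, of which Kcnmb1 is typical of smooth muscle, were not called in either model. Kcnmb1 changed by 0.01 ± 0.06 in PGC-1alpha-mTg and by -0.04 ± 0.06 in NCoR1-MKO. Markers of smooth muscle and pericytes had 3 of 8 genes called higher (Rgs5, Pdgfrb and Smtn) and none lower in PGC-1alpha-mTg. Acta2, Myh11, Tagln, Cnn1 and Lmod1 were not called. The part of these cells in the Kcnma1 result was not tested. In bulk muscle, fewer cells of a type and less RNA per cell cannot be told apart.

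Small-conductance channels are opened by calcium alone and shape the pause after an action potential. Kcnn2 (probe set 10455514) read 6.86, 6.65, 6.46, 6.38 and 6.77 in PGC-1alpha-mTg, against 6.08, 6.25, 6.06, 6.17 and 6.28 in WT. It read 6.96, 6.87, 7.02, 7.08 and 6.80 in NCoR1-MKO, against 6.60, 6.75, 6.69, 6.65 and 6.37 in CON. Neither pair of groups overlapped. The rise of Kcnn2 was 0.46 ± 0.08 in PGC-1alpha-mTg (adjusted p = 0.000190) and 0.33 ± 0.08 in NCoR1-MKO (adjusted p = 0.0321), a difference of 0.13 ± 0.12 (95% confidence interval from -0.12 to 0.37). The knockout call was lost without CON array 1, 4 or 5 or NCoR1-MKO array 1, 3 or 4 (adjusted p from 0.0512 to 0.102), and with each array centred on its median (adjusted p = 0.0504).

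Kcnn1, whose upstream run is given above, read 7.53, 7.5, 7.60, 7.55 and 7.82 in PGC-1alpha-mTg, against 7.30, 7.5, 7.22, 7.33 and 7.13 in WT. It rose by 0.31 ± 0.06 (adjusted p = 0.000570), and only WT array 2 reached the transgenic range. In NCoR1-MKO it read 7.22, 7.31, 7.24, 7.34 and 7.23, against 7.28, 7.23, 7.18, 7.23 and 7.27 in CON, a change of 0.03 ± 0.06. The 2 effects differed by 0.28 ± 0.09 (adjusted p = 0.0362). Kcnn3, the small-conductance gene known to appear in denervated muscle, was called in neither model. It read 6.51, 6.43, 6.51, 6.24 and 6.51 in PGC-1alpha-mTg, against 6.15, 6.17, 6.33, 6.48 and 6.50 in WT, and 7.01, 7.17, 7.09, 7.20 and 7.16 in NCoR1-MKO, against 6.90, 7.02, 6.80, 6.99 and 6.89 in CON. Its changes were 0.11 ± 0.07 (adjusted p = 0.255) and 0.21 ± 0.07 (adjusted p = 0.145). Kcnt2, a sodium-activated channel gene, read 4.50, 4.51, 4.65, 4.55 and 4.80 in PGC-1alpha-mTg, against 4.76, 4.87, 5.04, 4.70 and 5.04 in WT. It fell by 0.28 ± 0.08 (adjusted p = 0.0146), with PGC-1alpha-mTg array 5 inside the WT range. Without WT array 3 its adjusted p was 0.0507.

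Inward rectifiers had 2 of 15 genes higher and 2 lower in PGC-1alpha-mTg, and none called in NCoR1-MKO, where 4 had an unadjusted p under 0.05 in the same limma fit (11.8 percent of all genes did). Kcnj11 (probe set 10563480) forms the pore of the ATP-sensitive channel of skeletal muscle. It read 8.94, 8.77, 8.71, 8.77 and 8.88 in PGC-1alpha-mTg, against 9.04, 9.11, 8.98, 8.99 and 9.12 in WT, and the groups did not overlap. Kcnj11 fell by 0.23 ± 0.06 (adjusted p = 0.00367). The NCoR1-MKO arrays read 9.51, 9.43, 9.37, 9.41 and 9.17, against 9.54, 9.65, 9.56, 9.51 and 9.47 in CON, a change of -0.17 ± 0.06 that did not pass (adjusted p = 0.164). The effects differed by -0.07 ± 0.08 (95% confidence interval from -0.24 to 0.10). Without PGC-1alpha-mTg arrays 2 and 3 the transgenic adjusted p was 0.0517.

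Kcnj8 (probe set 10549102) forms the ATP-sensitive pore of vascular cells and rose where Kcnj11 fell. It read 9.15, 8.86, 9.09, 9.05 and 9.04 in PGC-1alpha-mTg, against 8.80, 8.74, 8.87, 8.80 and 8.81 in WT, with PGC-1alpha-mTg array 2 inside the WT range. It rose by 0.23 ± 0.07 (adjusted p = 0.0126). On the NCoR1-MKO arrays it read 9.51, 9.30, 9.35, 9.04 and 9.09, against 9.04, 9.04, 9.04, 9.09 and 9.10 in CON. The knockout change of 0.20 ± 0.07 did not pass (adjusted p = 0.159), except without NCoR1-MKO array 4 (0.25, adjusted p = 0.0469) and with array weights (0.23, adjusted p = 0.0414). Markers of vascular cells moved with it. In PGC-1alpha-mTg, 6 of 8 endothelial markers rose and none fell, with summed linear levels from 4149 to 4778 against 3194 to 3729 in WT. In NCoR1-MKO 1 of 8 rose, with levels from 4587 to 5528 against 3819 to 4555 in CON. All 8 changes were positive there, and 5 had an unadjusted p under 0.05 in the same limma fit (11.8 percent of all genes did). Of 8 smooth muscle and pericyte markers, 3 rose and none fell in PGC-1alpha-mTg (3735 to 4210, against 3201 to 3583 in WT), and none was called in NCoR1-MKO (4089 to 4467, against 4036 to 4491 in CON), where 1 had an unadjusted p under 0.05. Their part in the Kcnj8 result was not tested.

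The sulfonylurea receptor genes lie beside these pore genes, Abcc8 next to Kcnj11 on chromosome 7 and Abcc9 next to Kcnj8 on chromosome 6. Abcc9, whose product joins Kcnj11 in muscle, averaged 10.46 ± 0.03 in PGC-1alpha-mTg and 10.79 ± 0.03 in WT (SD, n = 5). The transgenic arrays lay between 10.41 and 10.49 and the WT arrays between 10.75 and 10.82. Abcc9 fell by 0.33 ± 0.04 (adjusted p = 1.33e-06), so it moved opposite to its neighbour Kcnj8 and in the same direction as Kcnj11. In NCoR1-MKO Abcc9 changed by -0.02 ± 0.04. Abcc8 changed by -0.13 ± 0.07 (adjusted p = 0.221) and by -0.01 ± 0.07 in the 2 models.

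The classical inward rectifiers hold the resting potential of the fibre. Kcnj12 read 7.48, 7.42, 7.43, 7.60 and 7.55 in PGC-1alpha-mTg, against 7.59, 7.69, 7.86, 7.68 and 7.85 in WT. It fell by 0.24 ± 0.06 (adjusted p = 0.00616), with overlap only between PGC-1alpha-mTg array 4 and WT array 1, and its adjusted p was 0.0710 without PGC-1alpha-mTg arrays 2 and 3. In NCoR1-MKO it read 8.07, 8.05, 8.0, 8.22 and 8.06, against 8.30, 8.28, 8.48, 8.19 and 8.16 in CON, a change of -0.20 ± 0.06 (adjusted p = 0.109). Kcnj2, mutated in human periodic paralysis with arrhythmia, read 9.40, 8.80, 9.15, 8.96 and 8.90 in PGC-1alpha-mTg, against 9.38, 9.11, 9.07, 9.43 and 9.12 in WT. The NCoR1-MKO arrays read 9.07, 8.99, 9.04, 8.88 and 8.76, against 8.80, 8.84, 8.45, 8.83 and 8.84 in CON. The groups overlapped in both cohorts. The changes were -0.18 ± 0.10 (adjusted p = 0.220, but -0.27 with adjusted p = 0.0366 without PGC-1alpha-mTg array 1) and 0.20 ± 0.10 (adjusted p = 0.50), and their difference of -0.38 ± 0.15 did not pass (adjusted p = 0.0904). Kcnj15 read 5.23, 5.27, 5.31, 5.26 and 5.25 in PGC-1alpha-mTg, against 5.17, 5.16, 5.00, 5.16 and 5.02 in WT. It rose by 0.16 ± 0.06 (adjusted p = 0.0342) without overlap. The call was lost without WT array 3 or 5 or PGC-1alpha-mTg array 2, 3 or 4 (adjusted p from 0.0562 to 0.103), and when quantiles were equalised over all 20 arrays (adjusted p = 0.0552).

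Tandem-pore-domain channels had 2 of 14 genes higher and none lower in PGC-1alpha-mTg, and none called in NCoR1-MKO, where 1 had an unadjusted p under 0.05. Kcnk1 (probe set 10576581), a weakly inward-rectifying leak channel gene, read 6.73, 6.95, 6.96, 6.64 and 6.55 in PGC-1alpha-mTg, against 5.91, 6.04, 5.93, 6.21 and 6.02 in WT. The groups lay well apart, and Kcnk1 rose by 0.75 ± 0.08 (adjusted p = 1.54e-07), a 1.68-fold increase. On the NCoR1-MKO arrays it read 5.94, 5.94, 6.18, 6.07 and 6.23, against 6.20, 6.17, 6.11, 5.96 and 6.21 in CON. The knockout change was -0.06 ± 0.08 (95% confidence interval from -0.23 to 0.11), and the models differed by 0.81 ± 0.11 (adjusted p = 2.08e-05). Its close relative Kcnk6 read 7.30, 7.20, 7.14, 7.44 and 7.62 in PGC-1alpha-mTg, against 7.26, 7.14, 7.15, 7.05 and 6.98 in WT. It rose by 0.22 ± 0.08 (adjusted p = 0.0455), with overlap. This call held in only 9 of the 20 fits that left out 1 array. It was lost without any of WT arrays 2 to 5, PGC-1alpha-mTg array 1, 4 or 5, CON array 4 or NCoR1-MKO array 1, 2 or 5 (adjusted p from 0.0512 to 0.126).

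**Figure D3:**
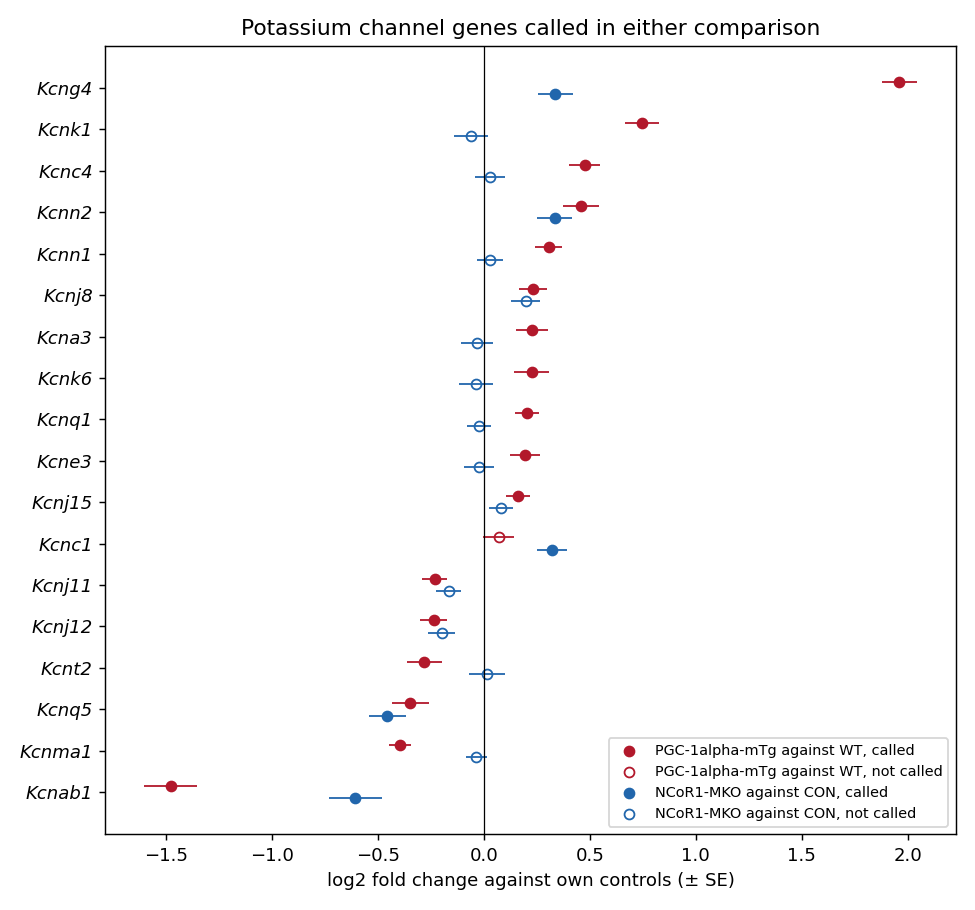
Log2 fold change ± SE of the 18 potassium channel genes called in either model, in PGC-1alpha-mTg against WT (red) and NCoR1-MKO against CON (blue), filled where called. Kcng4, Kcnn2, Kcnab1 and Kcnq5 are filled in both colours with the same sign.

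Set side by side, 18 genes were called in at least 1 model. Of the 5 called in NCoR1-MKO, 4 were also called in PGC-1alpha-mTg in the same direction, namely Kcng4 and Kcnn2 as higher and Kcnab1 and Kcnq5 as lower. They are 80.0 percent of the channel genes called in NCoR1-MKO and 23.5 percent of the 17 called in PGC-1alpha-mTg. Over all genes, 329 were called in the same direction in both, 62.7 percent of the 525 called in NCoR1-MKO and 5.90 percent of the 5575 called in PGC-1alpha-mTg. The cohorts had separate controls but were fitted with a shared spread per gene. The difference of the 2 effects was called for 6 of the 91 genes, 4 higher and 2 lower in PGC-1alpha-mTg relative to NCoR1-MKO (4.40 percent and 2.20 percent, beside 6.66 percent and 8.50 percent of all genes, and 15.2 percent together). These were Kcng4, Kcnk1, Kcnc4, Kcnn1, Kcnab1 and Kcnma1. Without PGC-1alpha-mTg array 5 the number higher was 8.

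The genes were also divided by their level. Of the 91 genes, 49 were among the dimmest 40 percent of all genes, and 42 were not. Among the brighter 42, 9 rose and 5 fell in PGC-1alpha-mTg, which is 21.4 percent and 11.9 percent, beside 16.4 percent and 25.7 percent of all 11963 brighter genes. Their median change was 0.10, beside -0.03 for all brighter genes. Among the 49 dim genes 2 rose and 1 fell (4.08 percent and 2.04 percent, beside 5.09 percent and 1.55 percent of all 7975 dim genes), with a median of 0.05 beside 0.04 for all dim genes. The 2 that rose were Kcne3 and Kcnj15, and the 1 that fell was Kcnt2. No detection call was used, so whether these dim genes are expressed in this muscle was not tested. In NCoR1-MKO the brighter genes had medians of -0.03 for the channel genes and 0.00 for all. The typical SD of a channel gene within a group was 0.132 in PGC-1alpha-mTg, 0.0936 in WT, 0.108 in NCoR1-MKO and 0.0985 in CON. Several channel genes are immediate neighbours, and no neighbouring pair of them had both genes called. Kcna3 rose in PGC-1alpha-mTg beside Kcna2 (-0.13 ± 0.08) on chromosome 3, and Kcnj15 beside Kcnj6 (0.04 ± 0.05) on chromosome 16, with neither neighbour called.

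The partners of the channels and the other routes of potassium, sodium and chloride were described from lists of 8 kinds. Among 12 other channel partners, 3 rose and 3 fell in PGC-1alpha-mTg, and 2 fell in NCoR1-MKO. Dpp6, an auxiliary protein of Kcnd channels, averaged 6.78 ± 0.06 in PGC-1alpha-mTg and 6.12 ± 0.18 in WT (SD, n = 5) and rose by 0.66 ± 0.08 (adjusted p = 6.91e-07). Lrrc38, a gamma subunit of BK channels, rose by 0.35 ± 0.10 (adjusted p = 0.0123). Amigo1, which binds Kcnb channels, fell by 0.31 ± 0.08 (adjusted p = 0.00312), with the membrane scaffold genes Ank3 (-0.30 ± 0.06) and Dlg1 (-0.24 ± 0.05). Dlg1 also fell in NCoR1-MKO (-0.18 ± 0.05, adjusted p = 0.0300), as did the caveolin gene of muscle, Cav3 (-0.18 ± 0.05, adjusted p = 0.0467).

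The sodium-potassium pump list had 2 of 8 measured genes higher and 3 lower in PGC-1alpha-mTg, and none called in NCoR1-MKO, where 2 had an unadjusted p under 0.05. Atp1b2, a beta subunit of the pump, averaged 9.51 ± 0.08 in PGC-1alpha-mTg and 10.57 ± 0.10 in WT (SD, n = 5). The transgenic arrays lay between 9.44 and 9.62, below all WT arrays, which lay between 10.43 and 10.67. It fell by 1.07 ± 0.05 (adjusted p = 7.89e-13), while Atp1b1, the beta subunit of slow fibres among other tissues, rose by 0.42 ± 0.07 (adjusted p = 0.000144). The pump regulator Fxyd5 rose by 0.31 ± 0.07, and Fxyd6 fell by 0.28 ± 0.07. In NCoR1-MKO Atp1b2 changed by -0.03 ± 0.05 and Atp1b1 by 0.10 ± 0.07.

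Of the cation chloride cotransporters, which carry potassium with chloride, Slc12a7 rose by 0.26 ± 0.05 and Slc12a4 fell by 0.18 ± 0.05 in PGC-1alpha-mTg, of 8 genes. Slc12a2, which imports sodium, potassium and chloride together, was the only one called in NCoR1-MKO. It averaged 9.45 ± 0.08 there and 9.99 ± 0.14 in CON (SD, n = 5), and fell by 0.54 ± 0.07 (adjusted p = 2.20e-05). Of 10 sodium channel genes, the beta subunit gene Scn4b rose by 0.65 ± 0.05 (adjusted p = 1.45e-09) and Scn3b fell by 0.41 ± 0.07 in PGC-1alpha-mTg, and none was called in NCoR1-MKO, where 1 had an unadjusted p under 0.05.

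Of 9 chloride channel genes, 2 rose and 5 fell in PGC-1alpha-mTg, and 1 fell in NCoR1-MKO. The calcium-activated chloride channel gene Ano1 rose by 0.69 ± 0.08, and Ano10 of the same family fell by 0.39 ± 0.06. In PGC-1alpha-mTg, Clcn3, an endosomal exchanger gene, rose by 0.53 ± 0.08 (adjusted p = 1.46e-05), but it fell by 0.31 ± 0.08 in NCoR1-MKO (adjusted p = 0.0354). Clcn1, the main resting chloride conductance of muscle, changed by 0.01 ± 0.05 and 0.03 ± 0.05. Tmem38b, an intracellular potassium-permeable channel gene of the sarcoplasmic reticulum, fell in both models, by 0.39 ± 0.05 in PGC-1alpha-mTg and by 0.33 ± 0.05 in NCoR1-MKO (adjusted p = 5.74e-06 and 0.000779). The lysosomal potassium channel gene Tmem175 fell by 0.25 ± 0.06 in PGC-1alpha-mTg. None of 3 Hcn genes was called.

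**Figure D4:**
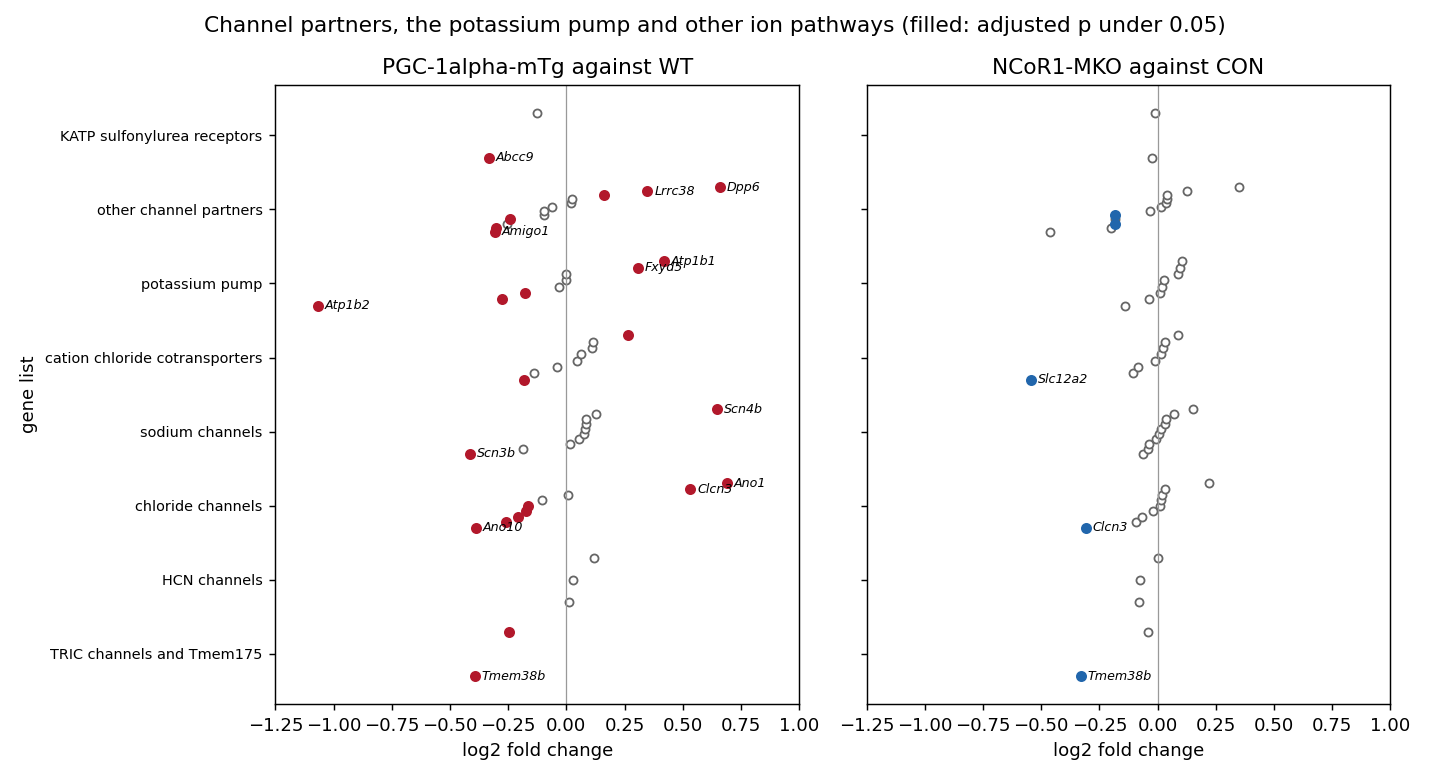
Log2 fold changes of channel partners, pump subunits, cotransporters and other ion channel genes by list (filled where the limma adjusted p is under 0.05), in PGC-1alpha-mTg against WT on the left and NCoR1-MKO against CON on the right. Atp1b2 at -1.07 lies farthest from 0 on the left and Slc12a2 at -0.54 on the right.

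Markers of other fibres and cells moved in the same muscles. Of 8 slow-fibre genes, 1 rose and 5 fell in PGC-1alpha-mTg, with a median of -0.70, and 2 fell in NCoR1-MKO, with a median of -0.79. Their summed linear levels lay between 3573 and 5992 in PGC-1alpha-mTg, between 6437 and 9566 in WT, between 3754 and 6934 in NCoR1-MKO and between 5602 and 10920 in CON. In NCoR1-MKO 7 of the 8 slow-fibre changes were negative and 1 was positive. There 7 of the 8 had an unadjusted p under 0.05 in the same limma fit (11.8 percent of all genes did). Of 8 fibroblast genes 3 fell in PGC-1alpha-mTg and none was called in NCoR1-MKO. Of 5 nerve and Schwann cell genes 1 fell, in PGC-1alpha-mTg, and of 7 adipocyte genes 1 rose, in PGC-1alpha-mTg. The part of these shifts in the channel results was not tested.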

How the data were processed

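The values were log2 expression values made by the authors with RMA, which corrects background, equalises quantiles and summarises probe sets; RMA and Partek are named, without versions, per the submitters' processing notes. The deposited table held 35556 probe sets on 20 arrays, made from 250 ng of total RNA each, per the labels. Array quantiles differed by at most 0.0630 within a cohort and by 0.169 to 0.228 between cohorts, so RMA was probably run on each cohort alone. Arrays have no depth; their number limits the precision. No detection call was used. Probe sets with 1 symbol (21789) took their symbol from GEO's platform annotation, and the brightest per gene over the 20 arrays was kept, with no filter on dim genes. The 91 members came from 94 probe sets, 3 genes having more than 1.

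The 4 group means were estimated over the 20 arrays by limma (version 3.58.1, under R 4.3.3; lmFit, eBayes), two-sided, with Benjamini-Hochberg adjustment over 19938 genes. The fit was tested on simulated data. The members, lists and tests were chosen with earlier results of these data known. Every called member is named. Values on each array are given for these and for a short list of muscle channel genes where measured. In the other lists, up to 4 called genes per comparison and a few set genes are named. Alternatives were other scalings, probe set means, a dim filter, other moderation, array weights, 10 arrays only, a replicate block and leaving out arrays. Sequences came from RefSeq tables, and motifs were searched on both strands.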

Additional observations from a re-analysis of the deposited data

Results flagged for a closer look

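In 2 of 84 groups of 5 arrays for the 21 named genes, 1 array stood apart from the others by more than Dixon's critical value of 0.71 of the group's range, and chance alone marks about 5 percent of groups. Kcnj2 read 8.45 on CON array 3, against 8.80 to 8.84 on the other CON arrays. Kcne3 read 4.68 on NCoR1-MKO array 4, against 4.98 to 5.08 on the other knockout arrays. Kcnf1, described above, was not among these 21 genes, and it too had arrays far from the rest of their group. It read 6.83 on WT array 5, against 5.48 to 5.81 on the other WT arrays. On NCoR1-MKO array 4 it read 7.68, against 5.99 to 6.43 on the other knockout arrays.

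The effects of the 2 models differed for 6 named genes by a limma test of the difference itself. Taken as the effect in PGC-1alpha-mTg minus that in NCoR1-MKO, the difference was 1.62 for Kcng4, 0.81 for Kcnk1, 0.45 for Kcnc4 and 0.28 for Kcnn1. It was -0.87 for Kcnab1 and -0.36 for Kcnma1.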

How the results depend on the processing

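No called log2 change of the 21 named genes reversed. Over the settings other than single arrays, 350 values kept their side of the threshold, 21 lost the call and 1 gained it. Over the fits without 1 array these numbers were 797, 41 and 2. With array weights, PGC-1alpha-mTg against WT had 17 channel genes higher in place of 11, and the difference of effects had 10 higher and 4 lower in place of 4 and 2. With probe sets averaged per gene, 1 gene was lower in the difference. With only the 10 arrays of its comparison, NCoR1-MKO had 1 gene higher in place of 3. Without PGC-1alpha-mTg arrays 2 and 3, chosen after the data were seen, 9 genes were higher in place of 11 and 3 lower in place of 6. The calls of Kcna3, Kcne3, Kcnj11, Kcnj12, Kcnj15, Kcnq1, Kcnq5 and Kcnt2 were lost (adjusted p from 0.0517 to 0.318). Of the 6 lower genes only Kcnab1 and Kcnma1 kept the call, so both counts in this setting include genes not called in the main fit. The cause of these shifts was not tested. Leaving out each array in turn gave 7 to 18 genes higher and 6 to 7 lower in PGC-1alpha-mTg, 1 to 3 higher and 2 to 3 lower in NCoR1-MKO, and 3 to 8 higher and 2 to 3 lower for the difference. The replicate numbers were not treated as pairs in the main fit. Same-numbered arrays correlated in their deviations at -0.232 to 0.196 in PGC-1alpha-mTg and WT and at -0.132 to 0.04 in NCoR1-MKO and CON. In these cohorts 4 and 0 of 10 arrays correlated best with their own number. Such correlations cannot settle whether the numbers pair the arrays. With the replicate block, 10 genes were higher and 6 lower in PGC-1alpha-mTg, 2 higher and 2 lower in NCoR1-MKO, and 3 higher and 3 lower for the difference. The calls missed under the block were Kcng4 in NCoR1-MKO (adjusted p = 0.109) and Kcnj15 and Kcnk6 in PGC-1alpha-mTg (0.0737 and 0.0650).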
